A study of Mus musculus with 8 samples.

Results

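The comparison asked which transcripts differed between neural stem cells held in TGF-beta1 and the same cells held in FGF2, both without ethanol. Its members are arrays, chosen by their labels: 2 arrays labelled FGF2 and 2 labelled TGF-beta1, which makes 4 of the 8 arrays of the series. The other 4 arrays, from cells given ethanol, entered neither the group means nor the estimate of the spread.

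The cells were NS5, a mouse neural stem cell line that the labels give as brain tissue at stage E11.5. Both groups were plated with FGF2 and EGF for 24 h, on laminin and a poly-ornithine coating, and were kept free of growth factors for 4 h. They then received FGF2 alone or TGF-beta1 alone for 48 h, so the TGF-beta1 group differed from the FGF2 group by the presence of one factor and also by the absence of the other. The labels give both factors at 10 ng per ul, a unit that the signals cannot check. NS5 is 1 line, and the labels do not tie the replicates to separate cultures, so every p value below measures only the spread between these samples, which may be technical.

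TGF-beta1 is a secreted cytokine. It binds a pair of receptor kinases that phosphorylate Smad2 and Smad3, which enter the nucleus with Smad4 and act on genes that include matrix components and inhibitors of the pathway itself. FGF2 binds FGF receptors, drives the ERK kinase cascade together with its feedback inhibitors of the Sprouty, Spred and Dusp families, and is the mitogen with which neural stem cells are commonly kept dividing.

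Each array gave a scaled signal for 45101 probe sets, from which 18193 genes were read and 10916 passed the filter on low signals. All arrays shared a 2% trimmed mean of 500. Median signals were 50.7 and 86.5 for FGF2 against 50.6 and 80.7 for TGF-beta1; here and below the value of replicate 1 comes first. The 3'/5' ratio of the actin control probe sets, which rises as RNA breaks down, was 2.349 and 3.606 for FGF2 against 2.36 and 3.029 for TGF-beta1. Replicate 2 was therefore the higher of both groups on these measures. Across the genes tested, the 2 FGF2 arrays correlated at r = 0.94 and the 2 TGF-beta1 arrays at r = 0.968, while replicate 1 of FGF2 and replicate 1 of TGF-beta1 correlated at r = 0.967. Genes are not independent replicates, and these values describe the arrays. FGF2 replicate 2 had the lowest correlations, 0.924 to 0.951, and stood apart in several of the gene groups below. Having 2 arrays a group limits how precise any value here can be.

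A neural identity was checked against marker genes. Vim, Fabp7, Slc1a3 and Sox2, markers of neural stem cells and radial glia, had signals between 7270 and 36790 on all 4 arrays. Slc1a3 is also on the astrocyte list, and these lists do not tell neural cell types apart. Of 26 stem and radial glia markers measured, 24 passed the signal filter. Of 21 astrocyte markers 20 passed it, of 22 neuronal markers 14 and of 20 oligodendrocyte lineage genes 11. Of 14 markers of fibroblasts and smooth muscle only 3 did, of 12 endothelial markers 1, of 14 microglial and macrophage markers 3 and of 12 pluripotency markers 4, and 0 of these were at exactly 0. The summed signal of the fibroblast and smooth muscle list was 953.9 and 1217 in FGF2 against 1538 and 1776 in TGF-beta1, with Col1a1 giving 296 and 188 of it in FGF2 and 1068 and 809.6 in TGF-beta1, and Acta2, Tagln, Col1a2 and Col3a1 lay below the filter. The endothelial sum was 221.1 and 622 in FGF2 against 232.3 and 421.4 in TGF-beta1, and the microglial sum 346.7 and 626.3 against 210.1 and 557.8. In RNA of a whole culture, fewer cells of a type and less RNA per cell cannot be told apart.

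The differences that passed the test were in genes of the extracellular matrix, of retinoid metabolism, of TGF-beta feedback and of the cell membrane. By limma, 5 of 10916 genes rose in TGF-beta1 (0.0458%) and 0 fell (0%) past an adjusted p of 0.05. At an unadjusted p under 0.05 there were 779 genes, 510 higher and 269 lower in TGF-beta1. The genes that rose were Fn1, Mfap4, Aldh1a1, Pmepa1 and Susd5.

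Fn1 encodes fibronectin, a matrix glycoprotein bound by integrins. Its signal was 119.7 and 139 in FGF2 against 3015 and 4109 in TGF-beta1. The lowest TGF-beta1 array lay far above the highest FGF2 array, with a log2 fold change of 4.55 ± 0.25 (SE, limma adjusted p = 0.013). Mfap4, a microfibril-associated glycoprotein, had signals of 98.1 and 69.7 in FGF2 against 3659 and 1754 in TGF-beta1. Its log2 fold change was 4.61 ± 0.39 (adjusted p = 0.0393), although its 2 TGF-beta1 arrays differed from each other by 1.05 on the log2 scale. Aldh1a1 encodes a retinaldehyde dehydrogenase that makes retinoic acid. The Aldh1a1 signal was 609 and 494 in FGF2 against 6742 and 5773 in TGF-beta1, so replicates stood close together in both groups. Its log2 fold change was 3.45 ± 0.21 (adjusted p = 0.013). Aldh1a7, a close paralogue of Aldh1a1 that is named here after its values were seen, had 588 and 172 against 1356 and 1839.9, and probe sets were not tested for binding both transcripts.

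Pmepa1 encodes a membrane protein that holds back Smad activation and is itself a target of the pathway. The Pmepa1 signal was 935 and 548 in FGF2 against 8093 and 7315 in TGF-beta1. All 3 of its probe sets pointed the same way, and its log2 fold change was 3.39 ± 0.28 (adjusted p = 0.0393). Susd5, a membrane protein with a sushi domain, had signals of 585 and 502 in FGF2 against 3409 and 2886 in TGF-beta1. The log2 fold change of Susd5 was the smallest of the 5, 2.49 ± 0.21 (adjusted p = 0.0393), with replicates differing by little in either group. Each of these 5 genes passed at every added constant and signal filter tried, but all 5 lost the call when either TGF-beta1 array was left out or when limma's prior ignored the trend with signal level.

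Promoter windows are shown for 3 genes with large differences, so that the letters of known motifs can be seen in place. Of the 5 genes that rose, Aldh1a1 and Susd5 had windows in the RefSeq promoter table (GRCm38.p6). Each window runs from 250 bases before to 50 after a gene's start. Ccn1, a TGF-beta target described below that did not pass the test, had one too. On both strands, CAGAC or its reverse complement GTCTG, the Smad box, was held by 49.6% of all 32851 windows, TGACTCA or TGAGTCA, the AP-1 site, by 5.2%, and TGACGTCA, the CRE, by 1.79%. Capitals mark these motifs in the sequences, which are written 5' to 3' on the gene's strand.
Aldh1a1, window 1, chr19:20492333-20492632, plus strand: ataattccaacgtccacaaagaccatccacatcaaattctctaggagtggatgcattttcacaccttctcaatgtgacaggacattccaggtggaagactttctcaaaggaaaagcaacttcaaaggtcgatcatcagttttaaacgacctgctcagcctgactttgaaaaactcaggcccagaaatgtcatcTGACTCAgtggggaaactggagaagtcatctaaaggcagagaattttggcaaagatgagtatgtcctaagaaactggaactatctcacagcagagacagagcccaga
Aldh1a1, window 2, chr19:20601718-20602017, plus strand: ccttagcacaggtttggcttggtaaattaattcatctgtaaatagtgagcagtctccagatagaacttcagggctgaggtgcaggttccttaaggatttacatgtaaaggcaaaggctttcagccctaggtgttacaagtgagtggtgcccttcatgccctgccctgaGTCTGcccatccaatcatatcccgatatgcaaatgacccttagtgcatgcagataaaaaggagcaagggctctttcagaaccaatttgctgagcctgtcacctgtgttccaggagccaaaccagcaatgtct
Susd5, chr9:114057104-114057403, plus strand: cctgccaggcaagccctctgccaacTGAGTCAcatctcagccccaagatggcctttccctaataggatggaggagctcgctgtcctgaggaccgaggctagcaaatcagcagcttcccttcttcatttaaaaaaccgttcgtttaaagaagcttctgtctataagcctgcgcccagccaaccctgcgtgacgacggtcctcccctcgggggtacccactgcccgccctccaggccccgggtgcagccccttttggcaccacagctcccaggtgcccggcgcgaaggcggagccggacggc
Ccn1, chr3:145649936-145650235, minus strand: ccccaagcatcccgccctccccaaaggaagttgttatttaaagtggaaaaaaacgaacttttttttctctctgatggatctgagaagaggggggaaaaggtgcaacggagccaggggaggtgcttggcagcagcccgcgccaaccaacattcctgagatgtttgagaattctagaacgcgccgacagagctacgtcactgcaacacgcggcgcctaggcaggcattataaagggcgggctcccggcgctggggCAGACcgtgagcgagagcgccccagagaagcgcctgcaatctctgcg
The first Aldh1a1 window and the Susd5 window each hold 1 AP-1 motif, and the second Aldh1a1 window and the Ccn1 window each hold 1 Smad box. Of the 15 genes with the largest separated differences upward, 10 had windows, and 7 of those genes had a Smad box, 2 an AP-1 motif and 1 a CRE. The windows of Bgn, Gfap and Padi2, which are not printed, held none of these motifs. Of the 15 downward, 8 had windows, and 4 had a Smad box. Over all 27025 genes of the table the shares were 53.2%, 5.95% and 2.03%. A match describes letters in a window and shows neither binding nor a cause.

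With 2 arrays a group, an exact permutation test of a single value cannot go below a two-sided p of 0.333. A size rule was counted beside limma's test: a gene was called separated where every array of one group lay at least 2-fold above every array of the other, on the scale of log2(signal + 21.99). This rule, which is no test, was met by 95 genes higher in TGF-beta1 (0.87% of those tested) and 24 lower (0.22%). Groups merely without overlap were found for 2249 genes higher (20.6%) and 1722 lower (15.8%). The median log2 fold change over all genes was 0.023, with 52.7% above 0. The median absolute difference between replicates, 1 array against 1, was 0.367 in FGF2 and 0.26 in TGF-beta1. That between the group means was 0.23, but each mean averages 2 arrays and so varies less, and these values are not like measures.

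The arrays weighed unequally in these counts. By limma 287 genes passed without FGF2 replicate 1 and 69 without FGF2 replicate 2, and 0 passed without TGF-beta1 replicate 1 or without TGF-beta1 replicate 2 (285 and 393 genes if p is left unadjusted, at 0.05). The separated genes numbered 500 higher and 165 lower without FGF2 replicate 1, 225 and 91 without FGF2 replicate 2, 155 and 70 without TGF-beta1 replicate 1, and 177 and 110 without TGF-beta1 replicate 2. Where the signals were scaled to a common median, 48 genes passed by limma, 43 higher and 5 lower. Yet fewer genes had an unadjusted p under 0.05 by limma, 519 against 779 without that scaling. The prior degrees of freedom that limma estimated were 31.94 with it and 4.235 without it, so the larger count is not more evidence of difference.

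**Figure D1:**
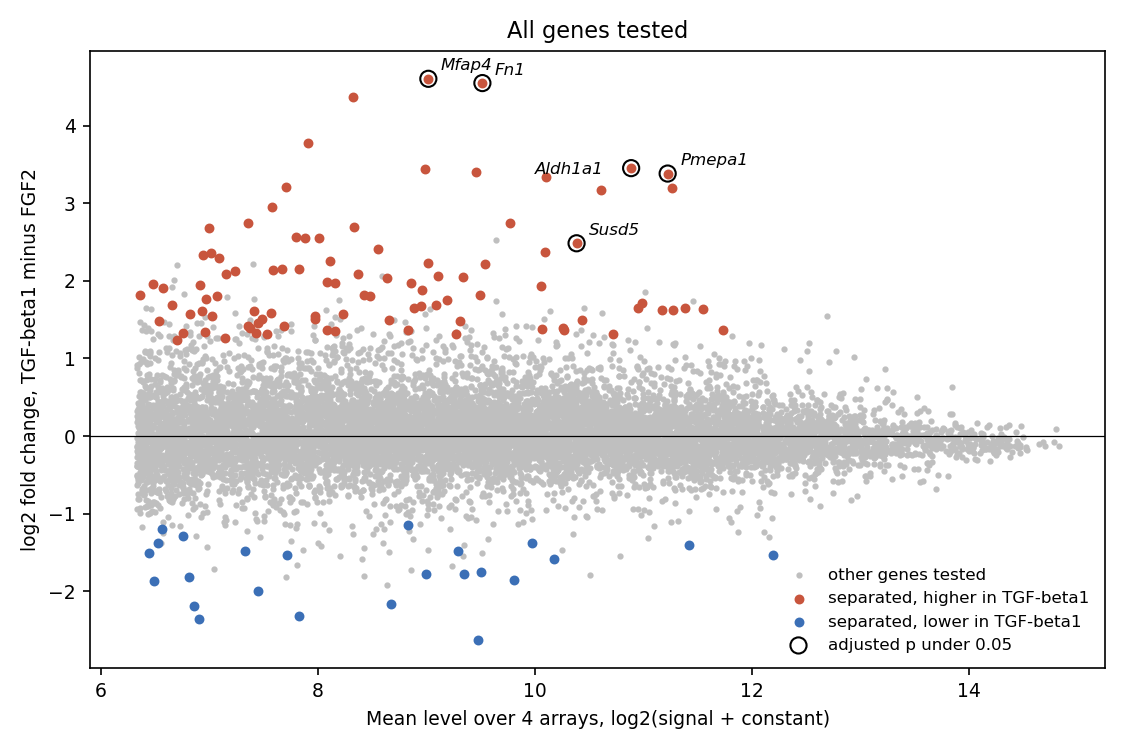
Log2 fold change (TGF-beta1 minus FGF2, vertical axis) of each of the 10916 genes tested against its mean level over the 4 arrays (log2 of signal plus constant, horizontal axis). Coloured points are the 95 genes separated upward and the 24 separated downward, and rings mark the 5 genes past an adjusted p of 0.05, which all lie above a fold change of 2 on the log2 scale.

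Among separated genes with a mean signal of at least 200 in the higher group, 84 lay above and 18 below, and the 15 with the largest fold change in each direction were taken. The upper 15 were Mfap4, Fn1, Bgn, Lgals2, Aldh1a1, Slc14a1, Gfap, Pmepa1, Padi2, Adcy7, Ltbp1, Ccn1, Tm4sf1, Sertad4 and Fst. Of these Fn1, Mfap4, Aldh1a1 and Pmepa1 passed the test, and the others had limma adjusted p between 0.0932 (Bgn) and 0.410 (Tm4sf1). Lgals2, a galactose-binding lectin, had signals of 53.8 and 33.8 in FGF2 against 1315 and 574 in TGF-beta1. Slc14a1, a urea transporter present in astrocytes, had 201 and 84.2 against 1789 and 1532. Both genes were well apart between the groups, as the rule that chose them required. Padi2, an arginine deiminase, had 741 and 134 against 4954 and 2448, with FGF2 replicate 2 far below FGF2 replicate 1. The adenylyl cyclase gene Adcy7 had 23.8 and 81.1 against 693 and 548. The membrane protein gene Tm4sf1 had 97.4 and 17.2 against 289 and 885 and Sertad4 had 43.8 and 38.4 against 452 and 357. In FGF2, Lgals2, Bgn, Tm4sf1, Sertad4 and Adcy7 lay near the added constant of 21.99 on at least 1 array, so their fold changes understate the ratio of signals.

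The lower 15 were Gjd2, Ccbe1, Dcx, Neurod4, Dtna, Pou3f1, Ntn4, Fgf1, Gas7, Slc6a11, Mcc, Dact1, Kbtbd11, Efhd2 and Gpr37. None passed the test: by limma, with no covariate, 0 genes fell, and the adjusted p of the 24 genes separated downward ran from 0.138 to 0.643. Gjd2 encodes connexin 36, the main neuronal gap junction protein. Its signal was 1479 and 2065 in FGF2 against 144 and 471 in TGF-beta1, a log2 fold change of -2.63 ± 0.51 (adjusted p = 0.304). Dtna, alpha-dystrobrevin of the dystrophin complex, had 789 and 899.8 against 176 and 167, with replicates close in both groups and a log2 fold change of -2.16 ± 0.26 (adjusted p = 0.138), although 2 of its 7 probe sets pointed the other way. Slc6a11, a GABA transporter of glia, had 977 and 1747 against 389.7 and 358. Gas7, an actin-binding protein of neurites, had 1629 and 863 against 267 and 407. Both lay lower on each TGF-beta1 array, as the rule that chose them required. Pou3f1, a POU transcription factor, had 223 and 476 against 99.1 and 41.5, and Kbtbd11, the brightest of the 15, had 6542 and 9565 against 2401 and 3096. For Mcc, only 2 of 5 probe sets shared the direction of the one used, and for Ccbe1, Kbtbd11 and Fgf1 1 probe set did not.

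**Figure D2:**
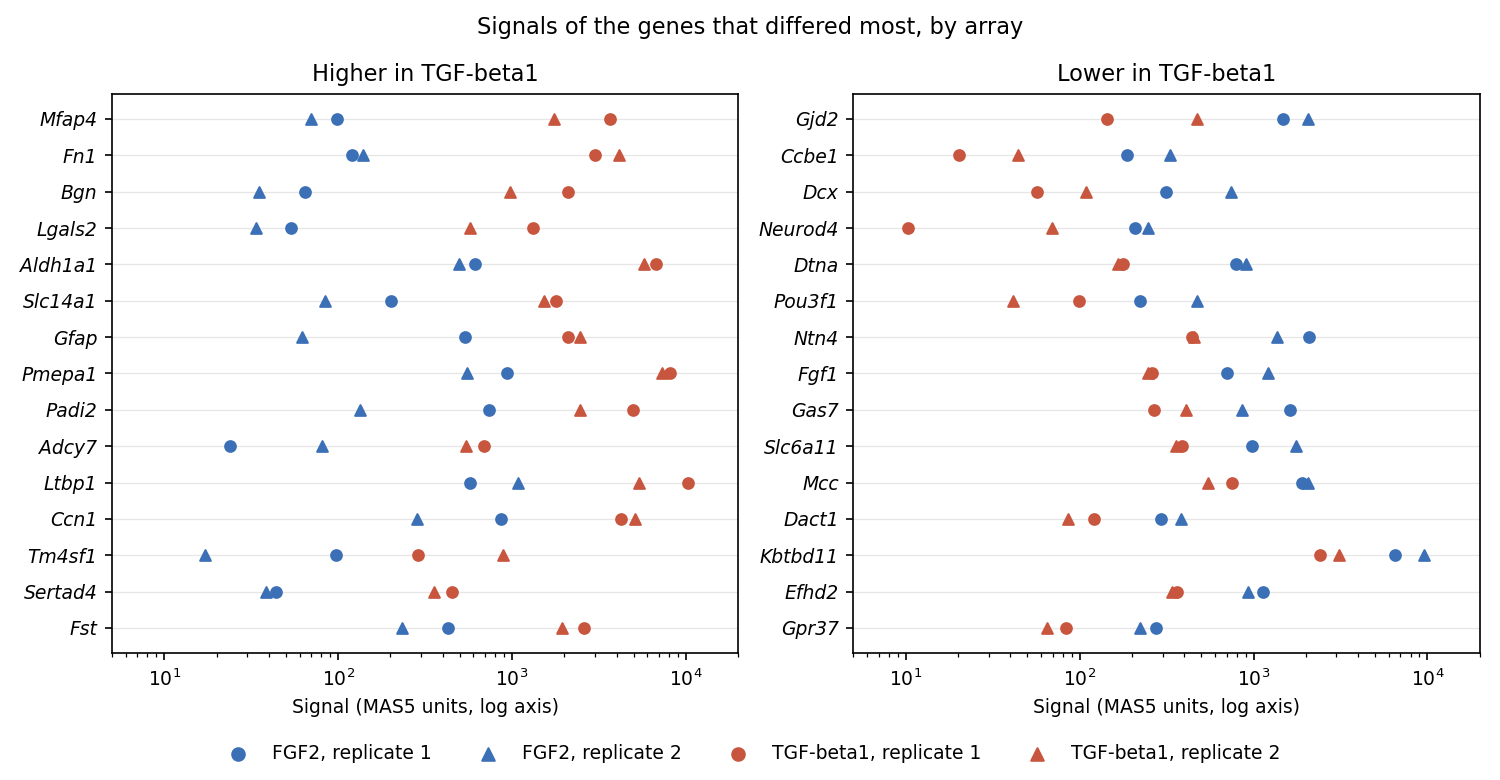
Signal (MAS5 units, log axis) on each of the 4 arrays for the 15 genes highest and the 15 lowest in TGF-beta1 among separated genes. Circles are replicate 1 and triangles replicate 2; the 2 colours do not overlap for any gene shown, because the genes were chosen for that, and FGF2 replicate 2 lies well below FGF2 replicate 1 for Gfap (534 and 61.9) and Padi2 (741 and 134).

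Gene lists written by hand, with signals as FGF2 against TGF-beta1, are described below by counts and medians, to be read against 20.6% of all genes without overlap upward, 15.8% downward and the median of 0.023. Where signals were scaled to a common median, 1482 of all genes lay higher and 1116 lower without overlap. The median of a list is also given without an array wherever leaving that array out turned its sign or moved it by more than 1.5 times.

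Direct and feedback targets of TGF-beta stood higher in TGF-beta1. Of 20 targets tested, Fn1 and Pmepa1 rose, and 12 lay higher without overlap and 1 lower. Where signals were scaled to a common median, 9 lay higher and 0 lower. By the size rule 5 were separated upward, and the list median was 0.87 (0.49 without FGF2 replicate 2). Among inhibitors of the pathway, Ldlrad4, a membrane protein related to Pmepa1, had 63.8 and 87.6 in FGF2 against 428 and 703 in TGF-beta1. Its log2 fold change was 2.56 ± 0.37 (adjusted p = 0.142), with all 4 probe sets in the same direction. Smad7, the inhibitory Smad, had 101 and 117 against 576 and 188, both TGF-beta1 arrays being higher but unequal. Skil, the SnoN repressor of Smad complexes, had 3558 and 4347 against 7815 and 7817, with closely matched replicates and a log2 fold change of 0.99 ± 0.21. The homeobox repressor Tgif1 had 508 and 113 against 689.6 and 758, where FGF2 replicate 2 alone lay far below. Ccn1, a secreted matricellular protein that is also a target of YAP, had 867 and 283 against 4241 and 5126 and a log2 fold change of 3.17 ± 0.48 (adjusted p = 0.145). The targets Ccn2, Snai1 and Junb lay below the signal filter.

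The receptors and signal transducers pointed mostly the other way. Of 14 receptor and Smad genes tested, 3 lay higher without overlap and 8 lower (5 where signals were scaled to a common median). The list median was -0.30 (-0.19 without FGF2 replicate 2). Where the probe sets of a gene were averaged, 12 were tested, 3 lay higher and 3 lower without overlap, and the median was -0.16. Tgfbr2, the ligand-binding receptor kinase, had 889 and 425 in FGF2 against 378 and 228 in TGF-beta1, so the groups did not overlap but lay close. Tgfbr1, its partner kinase, had 2558 and 2543 against 2122 and 1422. The co-receptor gene Tgfbr3 had 149 and 170.3 against 102 and 62.0. None of these 3 receptor genes passed the test, with log2 fold changes of -1.01, -0.55 and -0.83. Smad3, the transducer, had 2030.2 and 2562 against 1602 and 1765, a log2 fold change of -0.43, and 0.14 where its 3 probe sets were averaged. Acvr1, a receptor kinase of the BMP branch, had 158 and 174 against 387 and 272.

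Among ligands and their binding proteins, the activin antagonist follistatin, Fst, had the largest difference. The Fst signal was 426 and 233 in FGF2 against 2582 and 1943 in TGF-beta1, a log2 fold change of 2.74 ± 0.33 (adjusted p = 0.138). Tgfb3, a ligand of the same receptors, had 65.0 and 8.82 against 298 and 99.1, and the follistatin-like gene Fstl1 had 3291 and 1742 against 4045 and 3918. Of the 5 ligand genes tested, 3 lay higher without overlap, and the median was 0.73 (1.18 without FGF2 replicate 1, 0.29 without FGF2 replicate 2 and 0.45 without TGF-beta1 replicate 1) and 0.025 where every probe set was counted. The Tgfb1 transcript itself lay below the signal filter, with 9.15 and 27.7 against 22.4 and 3.32.

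Proteins that store or present latent TGF-beta differed by member. Of 12 tested, 5 lay higher and 1 lower without overlap, and the median was 0.14 (-0.011 without FGF2 replicate 1, 0.34 without FGF2 replicate 2 and 0.26 without TGF-beta1 replicate 1). Bgn, biglycan, a small proteoglycan that binds TGF-beta, had 64.7 and 35.1 in FGF2 against 2113 and 977 in TGF-beta1. Its log2 fold change was 4.37 ± 0.45 (adjusted p = 0.0932), the lowest adjusted p among separated genes that missed the threshold. Ltbp1, which ties latent TGF-beta to the matrix, had 575 and 1085 against 10264 and 5381, a log2 fold change of 3.20 ± 0.41 (adjusted p = 0.138) with 2 of 3 probe sets in that direction. Its relative Ltbp3 had 2104 and 2685 against 4395 and 4699.6. Fbn2, the microfibril protein fibrillin 2, had 1275 and 1554 against 993 and 696 and so lay lower on both TGF-beta1 arrays.

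BMP components and Id genes were mixed, with 4 of 12 higher and 3 lower without overlap (2 and 1 where signals were scaled to a common median). The list median was -0.045 (-0.17 without FGF2 replicate 1, 0.18 without FGF2 replicate 2, 0.088 without TGF-beta1 replicate 1 and -0.14 without TGF-beta1 replicate 2). Bmp6, left out by the signal filter, had 1.20 and 6.75 in FGF2 against 174 and 91.8 in TGF-beta1. With no filter 2 genes of the list were separated upward. Bmp5 had 42.4 and 51.9 against 526 and 135, and the receptor gene Bmpr1b had 995 and 1272 against 558 and 748. For each of them 2 of 3 probe sets shared the direction of the one used. Id1, an inhibitor of bHLH transcription factors, had 279 and 121 against 564 and 358, while Id3 had 3474 and 2357 against 2136 and 1814. The 2 Id genes thus stood on opposite sides, with log2 fold changes of 1.18 ± 0.45 and -0.54 ± 0.25.

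Feedback genes of the FGF-ERK cascade stood lower in TGF-beta1, where FGF2 was absent for the 48 h. Of 16 tested, 9 lay lower and 1 higher without overlap, 0 passed limma in either direction, and the median was -0.64; leaving out any 1 array moved it to between -0.72 and -0.47. Etv5, an ETS transcription factor induced by ERK, had 6742 and 6832 in FGF2 against 3553 and 2291 in TGF-beta1. The log2 fold change of Etv5 was -1.24 ± 0.26 (adjusted p = 0.364). Spry4, a Sprouty inhibitor, had 251 and 412 against 132 and 96.5, and all 4 of its probe sets agreed in direction. Dusp6, the ERK phosphatase, had 3492 and 5719 against 2488 and 2156, and Spred2 had 1102 and 1113 against 740.1 and 419. The groups did not overlap for any of these, and log2 fold changes were -1.35, -0.94 and -0.96. Myc, a growth-promoting transcription factor, had 735 and 842 against 302 and 549, and Phlda1 had 2050.1 and 1234 against 820.2 and 869. The member higher without overlap was Ier3, with 617 and 227 against 1125 and 690.2.

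Of 13 FGF and EGF receptors and ligands, 4 lay higher and 3 lower without overlap, with a median of 0.12 (-0.40 without FGF2 replicate 1 and 0.0067 without TGF-beta1 replicate 1) and -0.34 where the probe sets of a gene were averaged. Fgf1, the acidic FGF, had 700.4 and 1218 in FGF2 against 261 and 247 in TGF-beta1, a log2 fold change of -1.78 ± 0.32 (adjusted p = 0.257). Egfr, the EGF receptor, had 12796 and 17417 against 8792 and 11289, all 7 probe sets pointing down. Hbegf, a ligand of that receptor, went the other way with 88.1 and 257 against 415 and 543. Immediate-early genes depended on 1 array: Fos had 11538 and 1266 in FGF2 against 9231 and 13682 in TGF-beta1, and Egr1 had 10729 and 2817 against 7706 and 16157, FGF2 replicate 2 being the low one in both. The log2 fold change of Fos was 1.54 with that array and -0.038 without it. Of 14 immediate-early genes, 3 lay higher and 0 lower without overlap, with a median of 0.41 (0.62 without FGF2 replicate 1, -0.0071 without FGF2 replicate 2 and 0.63 without TGF-beta1 replicate 1). Ier5 had 1801 and 890.1 against 3866 and 2939.8, above both FGF2 arrays on each TGF-beta1 array.

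Integrins, the receptors of fibronectin and other matrix proteins, differed by member. Of 11 genes of this group, Fn1 rose, 5 (Fn1 included) lay higher and 0 lower without overlap, and the median was 0.11 (0.34 without FGF2 replicate 2, 0.58 without TGF-beta1 replicate 1 and 0.44 without TGF-beta1 replicate 2). Itga5, whose product pairs with beta 1 as the classical fibronectin receptor, had 175 and 114 in FGF2 against 399 and 334 in TGF-beta1. Itgb5 had 115 and 199 against 521 and 475 and Itga9 had 77.5 and 83.6 against 242 and 250.4; both were separated. Their log2 fold changes were 1.24 ± 0.34, 1.58 ± 0.34 and 1.39 ± 0.34, none past the test. Itga4, Itgav and Itgb1, other chains of fibronectin-binding integrins, overlapped between groups, with Itgb1 at 1512 and 1490.2 against 1472 and 1703.

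Of 22 collagen genes measured, 9 passed the signal filter, 4 of them higher and 2 lower without overlap. Their median was 0.27 (0.58 without FGF2 replicate 1, -0.11 without FGF2 replicate 2 and 0.49 without TGF-beta1 replicate 2) and -0.057 over the members without a signal filter. Col11a1, a fibril collagen, had 398 and 218 in FGF2 against 1192 and 1407 in TGF-beta1. Col1a1, the main chain of collagen I, had 296 and 188 against 1068 and 809.6. Both were separated, with log2 fold changes of 2.05 ± 0.32 and 1.88 ± 0.31 (adjusted p = 0.173 and 0.187), while Col1a2, the other chain of collagen I, lay below the filter at 17.3 and 91.6 against 35.0 and 39.6. Col16a1 had 194 and 255 against 459.8 and 518, and Col5a3 lay lower with 100.3 and 186 against 52.4 and 60.7, in 1 of its 2 probe sets. The summed fibroblast and smooth muscle signal given above was higher on both TGF-beta1 arrays too, but without Col1a1 it was 658.3 and 1029 in FGF2 against 470.2 and 966.7 in TGF-beta1.

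Of 12 enzymes that modify collagen, 6 lay higher and 1 lower without overlap, with a median of 0.38 (0.19 without TGF-beta1 replicate 1 and 0.69 without TGF-beta1 replicate 2). Plod2, a lysyl hydroxylase, had 568 and 390.2 against 1487 and 1001, and its relative Plod1 had 1235 and 1217 against 2586 and 2285. Crtap, part of the prolyl 3-hydroxylase complex, had 471 and 557 against 977 and 981. Replicates of Plod1 and Crtap stood close together in both groups, and their log2 fold changes were 0.98 ± 0.19 and 0.91 ± 0.22.

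Of 12 laminin and basement membrane genes, 7 lay higher and 1 lower without overlap, with a median of 0.51 (0.32 without TGF-beta1 replicate 2). Lamb1, a beta chain of laminin, had 784 and 679 in FGF2 against 1249.6 and 1206 in TGF-beta1, and Lama1 had 33.3 and 95.1 against 196 and 186. The exception was Ntn4, a netrin that binds laminin and disturbs its network. The Ntn4 signal was 2098 and 1361 in FGF2 against 441 and 457 in TGF-beta1, a log2 fold change of -1.86 ± 0.27 (adjusted p = 0.142).

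Proteoglycans, tenascins and the hyaluronan system held 20 tested genes, of which 9 lay higher and 2 lower without overlap. Their median was 0.51 (0.20 without FGF2 replicate 1 and 0.26 without TGF-beta1 replicate 2). Has2, the main hyaluronan synthase, had 138 and 139 in FGF2 against 803 and 546 in TGF-beta1. FGF2 replicates of Has2 were almost equal, and its log2 fold change was 2.10 ± 0.31 (adjusted p = 0.142). Gpc6, a glypican on the cell surface, had 1115 and 624 against 2115 and 2245 with all 5 probe sets higher. Tnc, tenascin C of the neural stem cell niche, had 1327 and 1061 against 4819 and 1648, with TGF-beta1 replicate 1 well above the rest. Both syndecans named here were higher on each TGF-beta1 array: Sdc1 had 1938 and 1314 against 2646 and 3032, and Sdc3 had 1927 and 2531 against 3252 and 3474. Of 11 matrix proteases and their inhibitors, 5 lay higher and 0 lower without overlap, with a median of 0.23 (0.36 without FGF2 replicate 1 and 0.39 without FGF2 replicate 2). Adamts1, which cleaves such proteoglycans, had 94.1 and 197 against 800.2 and 328.

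Of 16 contractile and actin-binding genes, 3 lay higher and 0 lower without overlap, with a median of 0.16 (0.28 without FGF2 replicate 2, 0.35 without TGF-beta1 replicate 1 and 0.022 without TGF-beta1 replicate 2). Cnn2, a calponin, had 460.0 and 347 in FGF2 against 889.6 and 1114 in TGF-beta1, and Actn1 had 960.1 and 534 against 1283 and 1174. Smooth muscle actin, Acta2, lay below the filter, as above. Of the transcription factors and cadherins of the epithelial to mesenchymal transition, 13 were tested, 2 lay higher and 1 lower without overlap, and the median was -0.15 (-0.37 without FGF2 replicate 1, 0.17 without FGF2 replicate 2 and -0.023 without TGF-beta1 replicate 2). Cdh6 had 88.8 and 189.7 against 385 and 526 and Cdh4 had 774 and 567 against 399 and 456, so these cadherins stood on opposite sides. Of 15 YAP and TEAD response genes, 5 lay higher and 2 lower without overlap, with a median of 0.30 (0.45 without FGF2 replicate 1 and 0.031 without FGF2 replicate 2). Apart from Ccn1 the largest difference there was that of F3, tissue factor, with 74.7 and 153 against 246 and 248.

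Neural stem and radial glia markers lay on both sides. Of 24 tested, 6 lay higher (3 where signals were scaled to a common median) and 4 lower without overlap, near the share of all genes, and the median was -0.13 (-0.030 without FGF2 replicate 2 and 0.017 without TGF-beta1 replicate 1). Nes, the intermediate filament nestin, had 798 and 602 in FGF2 against 447 and 367 in TGF-beta1. Sox2, a transcription factor of neural progenitors, had 8762 and 10589 against 7791 and 7269.5. Msi2, an RNA-binding protein, had 5844 and 5155 against 3533 and 3430.2, and Pax6, a transcription factor of radial glia, had 1134 and 884 against 1661 and 1515 with 3 of 5 probe sets higher. None passed the test, the log2 fold changes being -0.74 ± 0.27, -0.36 ± 0.22, -0.65 ± 0.20 and 0.65 ± 0.22.

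Astrocyte markers also lay on both sides. Of 20 tested, 4 lay higher and 1 lower without overlap, and the median was 0.020 (-0.18 without FGF2 replicate 1, 0.33 without FGF2 replicate 2, 0.21 without TGF-beta1 replicate 1 and -0.22 without TGF-beta1 replicate 2). Gfap, the astrocyte intermediate filament, had 534 and 61.9 in FGF2 against 2102 and 2461 in TGF-beta1. All 3 probe sets of Gfap pointed up, but its FGF2 arrays differed by 2.73 on the log2 scale, and the log2 fold change of 3.41 ± 0.80 did not pass (adjusted p = 0.405). Clu, the chaperone clusterin secreted by astrocytes, had 239 and 252 against 707 and 943, with a log2 fold change of 1.65 ± 0.27. The transcription factor Nfix had 2038 and 1813 against 4154 and 3223. Other markers were bright and overlapped: Aqp4, the water channel, had 5327 and 10557 against 6899 and 9439, and Gja1, connexin 43, had 10529 and 16571 against 14202 and 18386. These named markers were all higher in the mean, but only 10 of the 20 were above 0. Slc1a2 had 581 and 2530 against 778 and 678, and Sparcl1 had 3403 and 4401 against 3406 and 2095. Both overlapped, with log2 fold changes of -0.73 and -0.53. The member lower without overlap was Id3, at -0.54.

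Neuronal markers lay on both sides. Of 14 neuronal markers tested, 3 lay lower (5 where signals were scaled to a common median or quantile normalised) and 1 higher without overlap, where 15.8% of all genes lay lower, and the median was -0.57, but 0.16 without FGF2 replicate 2, -0.11 without TGF-beta1 replicate 1, -0.94 without FGF2 replicate 1 and -0.95 without TGF-beta1 replicate 2. Dcx, the microtubule protein doublecortin of young neurons, had 314 and 742 in FGF2 against 56.5 and 109 in TGF-beta1. All 4 probe sets of Dcx pointed down, with a log2 fold change of -2.32 ± 0.50 (adjusted p = 0.379). Stmn3, a stathmin of neurons, had 2450.2 and 3302 against 1113 and 1748. Uchl1, a neuronal ubiquitin hydrolase, went the other way and was separated, with 1517 and 1273 against 4039 and 4633 and a log2 fold change of 1.62 ± 0.20 (adjusted p = 0.138). Of 11 proneural and lineage factors, 4 lay lower and 0 higher without overlap, with a median of -0.37 (-0.19 without FGF2 replicate 2, -0.067 without TGF-beta1 replicate 1 and -0.85 without TGF-beta1 replicate 2). Neurod4, a proneural bHLH factor, had 207 and 248 against 10.3 and 69.5, TGF-beta1 replicate 1 being under the added constant. Gad1, which makes GABA, had 198 and 705 against 54.0 and 188, with 1 of its 2 probe sets in that direction. In both lists replicate 2 was the higher array of each group by mean level, 9.49 against 8.51 in FGF2 and 8.90 against 8.11 in TGF-beta1 for the neuronal markers. Of 11 oligodendrocyte lineage genes, 1 lay higher and 3 lower without overlap, with a median of -0.15 (-0.22 without FGF2 replicate 1 and -0.35 without TGF-beta1 replicate 2).

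**Figure D3:**
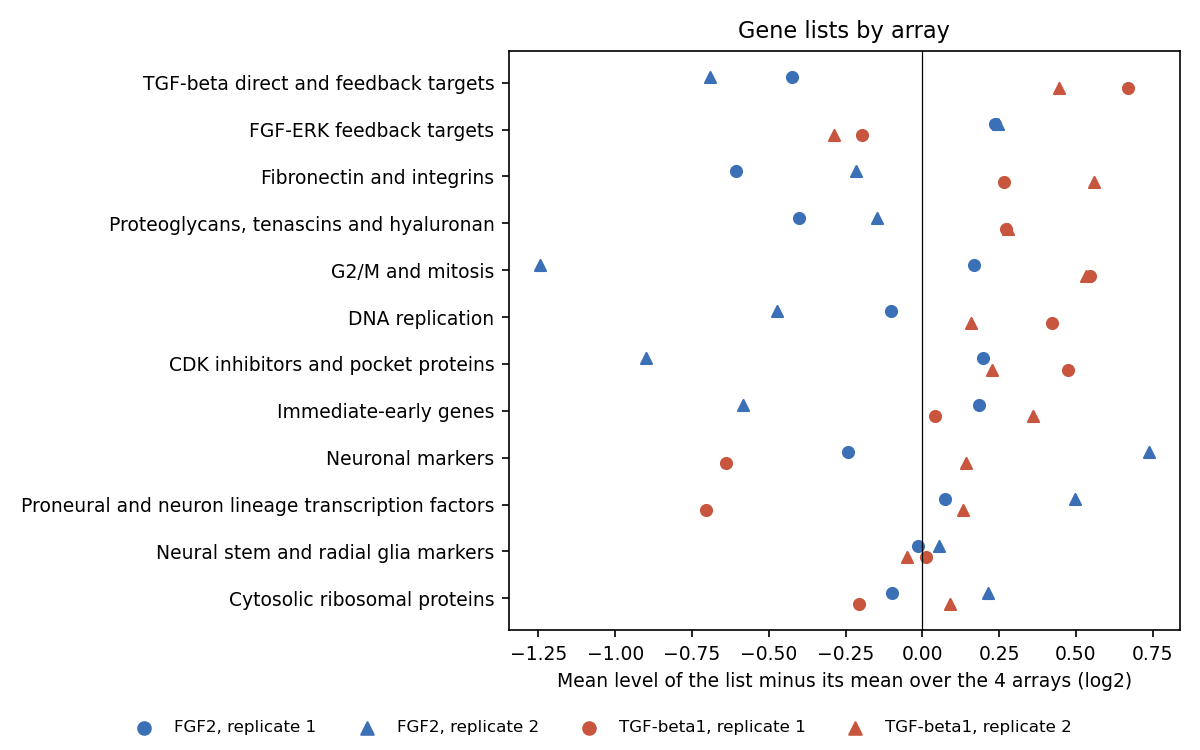
Mean level of the tested members of 12 gene lists on each array, minus the list's mean over the 4 arrays (log2, horizontal axis). For the TGF-beta targets, the FGF-ERK feedback targets and the proteoglycan list both arrays of a group lie together. For the fibronectin list the groups do not overlap, but its FGF2 arrays are spread nearly as far as the gap between the groups. For G2/M genes, CDK inhibitors and immediate-early genes FGF2 replicate 2 lies apart to the left of the other 3 arrays.

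Genes of cell division were higher in TGF-beta1, most of all against FGF2 replicate 2. Of 34 genes of G2/M and mitosis, 30 lay higher and 0 lower without overlap, all 34 had a log2 fold change above 0, and 0 passed limma. Where signals were scaled to a common median, 16 of the 34 lay higher without overlap. The mean level of the list was 10.35 and 8.93 in FGF2 against 10.72 and 10.71 in TGF-beta1. FGF2 replicate 2, the lowest array, also had the highest actin 3'/5' ratio, 3.606. In TGF-beta1 that ratio was 2.36 for replicate 1 and 3.029 for replicate 2, at nearly the same level of the list. Any link between the ratio and the level was not tested. The median log2 fold change of the list was 1.10, 0.38 without FGF2 replicate 2 and 1.86 without FGF2 replicate 1. Cdk1, the mitotic kinase, had 2603 and 1026 in FGF2 against 4171 and 3308 in TGF-beta1. Ccnb2, its cyclin B partner, had 1409 and 269 against 1984 and 1904, and the kinase gene Aurka had 502 and 216 against 889 and 798. The log2 fold changes of these 3 genes were 1.17 ± 0.43, 1.61 ± 0.68 and 1.29 ± 0.40, and 1 of the 2 probe sets of Aurka shared its direction.

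DNA replication genes pointed the same way. Of 31 tested, 23 lay higher (12 where signals were scaled to a common median) and 0 lower without overlap, 30 were above 0, and the median was 0.59, with values between 0.42 and 0.84 when any 1 array was left out. Mcm3, a subunit of the replicative helicase, had 809.6 and 706 in FGF2 against 1711 and 1168 in TGF-beta1. Gins2, which joins that helicase, had 267 and 301 against 609 and 530.2, and the polymerase gene Pold1 had 743 and 539.6 against 1388 and 1085. For all 3 the TGF-beta1 arrays lay above both FGF2 arrays, with log2 fold changes from 0.88 to 0.95. Of 22 G1/S regulators, 10 lay higher and 2 lower without overlap, with a median of 0.53 (0.12 without FGF2 replicate 2 and 0.20 without TGF-beta1 replicate 1). Mycn, a MYC family factor of neural progenitors, was separated with 242 and 194 against 1933 and 623, in 2 of 3 probe sets, where Myc lay lower. Ccne1, cyclin E1, had 163 and 258 against 432 and 482.

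Most inhibitors of the cell cycle were higher too, again with FGF2 replicate 2 the lowest array. Of 11 CDK inhibitors and pocket proteins, 6 lay higher (3 where signals were scaled to a common median) and 0 lower without overlap. The list median was 0.75, with 10 of 11 above 0, and 0.24 without FGF2 replicate 2, with 6 above 0. Cdkn1a, Cdkn1b, Cdkn1c, Rb1 and Rbl2 overlapped between groups, Cdkn1b having a log2 fold change of -0.039. The largest difference was that of Cdkn3, with 711 and 98.5 in FGF2 against 1115 and 725 in TGF-beta1, a log2 fold change of 1.63 ± 0.79. Cdkn2b, the p15 inhibitor that TGF-beta induces in many cells, had 137 and 205 in FGF2 against 422 and 375 in TGF-beta1, where FGF2 replicate 2 was not the low one. Its log2 fold change was 1.14 ± 0.32 (adjusted p = 0.53). Cdkn2c, p18, had 715 and 256 against 921 and 787. Of 19 p53 targets and apoptosis genes, 4 lay higher and 1 lower without overlap, with a median of 0.12 (0.21 without FGF2 replicate 1, 0.025 without FGF2 replicate 2, 0.30 without TGF-beta1 replicate 1 and 0.069 without TGF-beta1 replicate 2). Bcl2l11, the death-promoting protein Bim, was separated with 1534 and 1075 against 3986 and 4044, all 5 probe sets higher and a log2 fold change of 1.63 ± 0.23 (adjusted p = 0.142).

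Wnt and Notch components were divided. Of 25 Wnt genes, 4 lay higher and 9 lower (4 where signals were scaled to a common median) without overlap, with a median of 0.047 that was below 0 when any 1 array was left out (-0.15 without FGF2 replicate 2, -0.11 without TGF-beta1 replicate 1, -0.076 without FGF2 replicate 1 and -0.071 without TGF-beta1 replicate 2). Fzd1, a Wnt receptor, had 1274 and 1468 in FGF2 against 642 and 750.5 in TGF-beta1. Tcf7l2, a transcription factor of the pathway, had 3246 and 3089.9 against 1811 and 2093, and Axin2, its feedback target, had 3489.9 and 3661 against 2107 and 2721. Replicates of all 3 were close, with log2 fold changes of -0.96 ± 0.22, -0.70 ± 0.19 and -0.57 ± 0.21. Of 21 Notch genes, 8 lay higher and 5 lower without overlap, with a median of 0.12 (0.024 without FGF2 replicate 1). Notch3 had 2874 and 2355 against 4399 and 3741, and Hes6, a bHLH factor of this family, had 7059 and 7072 against 12172 and 13753.

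Among 32 axon guidance genes 7 lay higher and 6 lower without overlap, near the share of all genes, with a median of -0.15 (0.064 without FGF2 replicate 2 and -0.036 without TGF-beta1 replicate 1). The semaphorin Sema3c was separated upward, with 83.5 and 108 against 302 and 239.8. Plxnc1, a semaphorin receptor, had 2125 and 1771 against 1123 and 1167, with 4 of 6 probe sets in that direction. Of 13 neural adhesion molecules, 2 lay higher and 1 lower without overlap, with a median of 0.0094 (-0.21 without FGF2 replicate 1, 0.16 without FGF2 replicate 2, 0.057 without TGF-beta1 replicate 1 and 0.040 without TGF-beta1 replicate 2), and Chl1, of the L1 family, had 1153 and 1405 against 631 and 666. Of 9 chemokine and inflammatory genes, 1 lay higher and 1 lower, with a median of 0.077 (-0.10 without FGF2 replicate 1, 0.011 without FGF2 replicate 2, 0.12 without TGF-beta1 replicate 1 and -0.15 without TGF-beta1 replicate 2). Ackr3, the scavenging receptor of the chemokine CXCL12, had 2272 and 1907 against 873 and 1329.7. Chl1 and Ackr3 thus lay lower on both TGF-beta1 arrays, with log2 fold changes of -0.95 ± 0.22 and -0.94 ± 0.26.

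Of 20 glycolysis and hypoxia genes, 8 lay higher (4 where signals were scaled to a common median) and 0 lower without overlap, with a median of 0.17; leaving out any 1 array gave 0.13 to 0.21. Adm, the peptide adrenomedullin, had 2805 and 1725 in FGF2 against 4240.2 and 4992 in TGF-beta1. Of 19 glutathione and NRF2 genes, 2 lay higher and 2 lower without overlap, and Gstm1, a glutathione transferase, had 4606 and 7131 against 2088 and 2796 with a log2 fold change of -1.24 ± 0.28; the median of that list was -0.085 (-0.41 without FGF2 replicate 1, 0.13 without FGF2 replicate 2, 0.052 without TGF-beta1 replicate 1 and -0.27 without TGF-beta1 replicate 2). Of 22 cholesterol synthesis and SREBP genes, 2 lay higher and 0 lower without overlap, with a median of 0.10 (0.0083 without FGF2 replicate 1, 0.36 without FGF2 replicate 2, -0.052 without TGF-beta1 replicate 1 and 0.35 without TGF-beta1 replicate 2). Of 22 genes of ER stress, 3 lay higher and 1 lower, with a median of -0.012 (-0.41 without FGF2 replicate 1, 0.33 without FGF2 replicate 2, 0.057 without TGF-beta1 replicate 1 and 0.019 without TGF-beta1 replicate 2). Of 22 cytosolic ribosomal proteins, 0 lay higher and 1 lower without overlap. By limma 0 genes of these 5 lists passed. The ribosomal proteins had a median of -0.12, and 0.15 without FGF2 replicate 2, 0.093 without TGF-beta1 replicate 1, -0.40 without FGF2 replicate 1 and -0.33 without TGF-beta1 replicate 2.

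**Figure D4:**
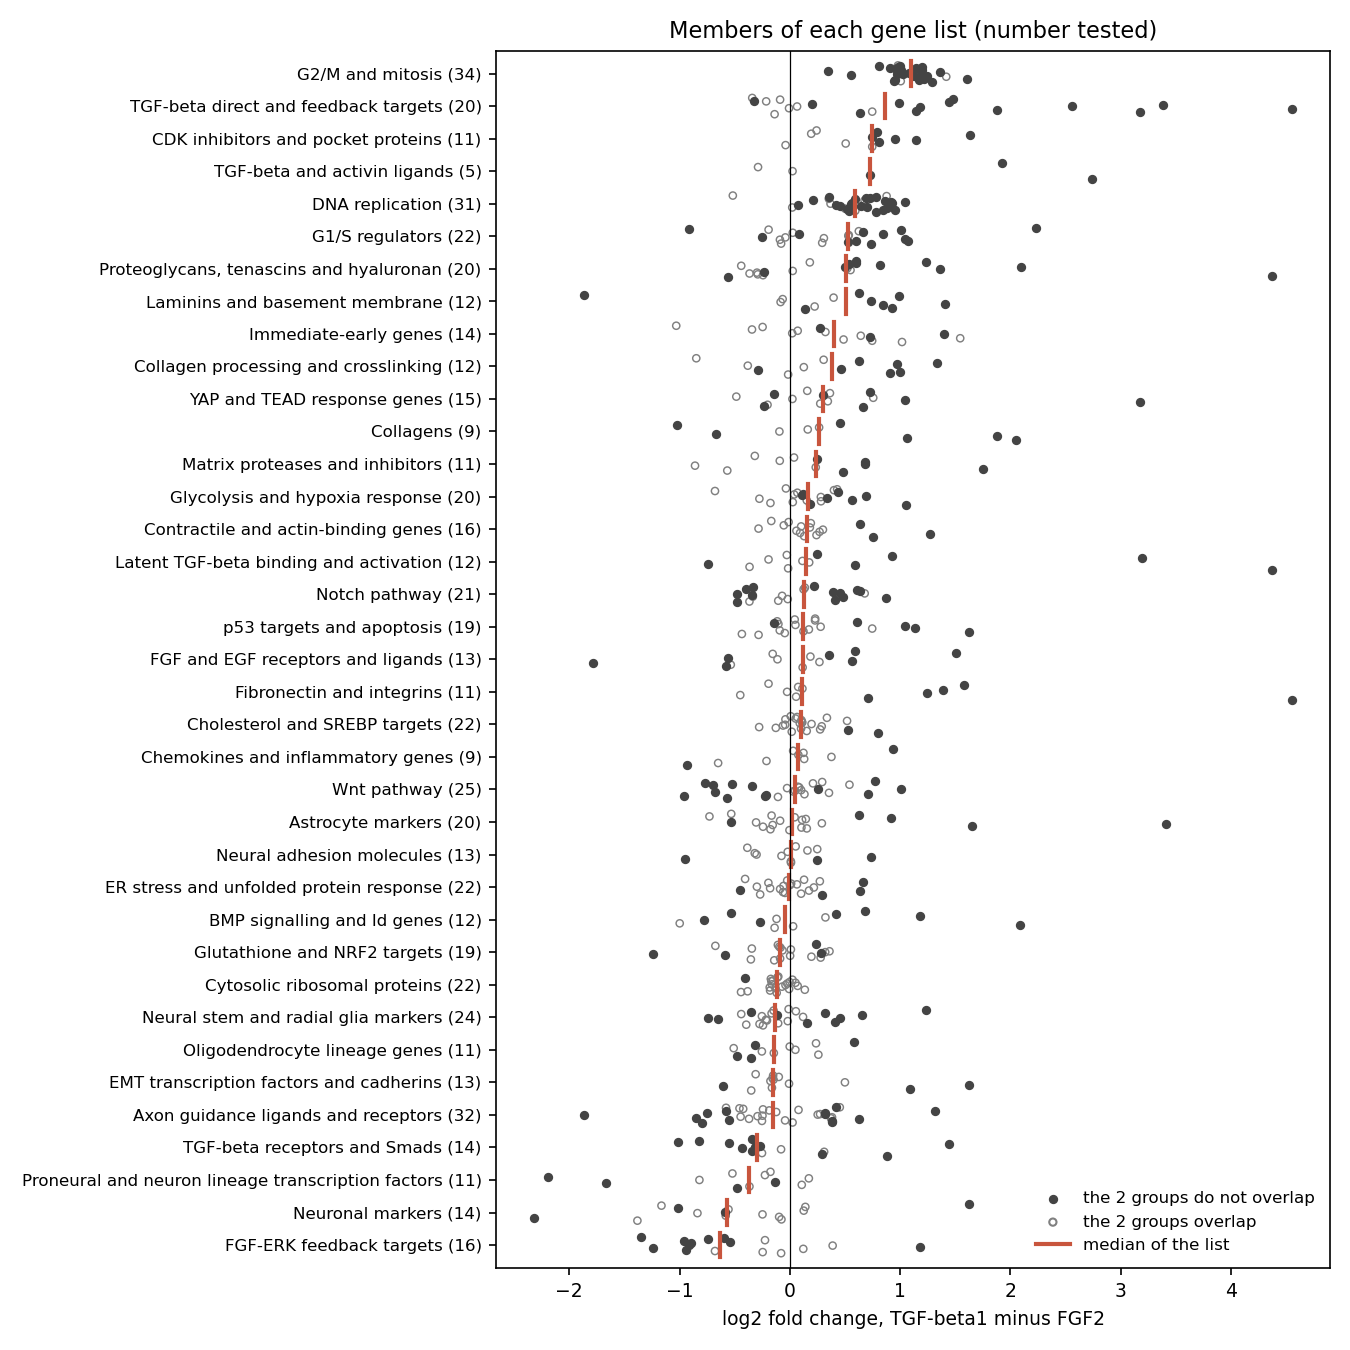
Log2 fold change (TGF-beta1 minus FGF2, horizontal axis) of every tested member of 37 gene lists, with the number tested in brackets. Filled points are genes whose groups do not overlap, open points overlap, and the red bar is the median, which runs from -0.64 for the FGF-ERK feedback targets to 1.10 for G2/M and mitosis.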

How the data were processed

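The authors hybridised labelled cRNA to Affymetrix mouse expression arrays and deposited MAS5 signal intensities on a linear scale, made with GCOS and scaled to a common target, per the submitters' processing notes and the values; the tools' versions are not given in the sources used here. Each of 45101 probe sets was named through the platform annotation. Of these, 34945 had 1 gene symbol, 932 several, which were not used, and 9160 none, and 64 control probe sets were left out. The probe set with the highest mean stood for a gene. Values were analysed as log2(signal + 21.99), where 21.99 is the 25th percentile over the 4 arrays, so fold changes of dim genes are understated. Genes under the 40th percentile of the mean level (6.329) were left out. The 4 arrays were fitted with limma 3.58.1 in R 4.3.3 (lmFit and eBayes with trend, 2 residual degrees of freedom, no covariate), with Benjamini-Hochberg adjustment over all 10916 genes. The fit was tested on simulated data.

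Genes were named by rule: those past an adjusted p of 0.05, the 15 largest separated differences each way with a mean signal of at least 200, and up to 6 members of each list by size of difference, with members that define a list by their role. The groups compared, the gene lists and their members were chosen with earlier results of these data known. Promoter windows are those of RefSeq on GRCm38.p6. Alternatives were 2 other constants, 2 other filters, quantile normalization, median scaling, no trend, every probe set, the mean of probe sets, the replicate number as a block, and each array left out.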

Additional observations from a re-analysis of the deposited data

How the results depend on the processing

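The 5 genes that passed by limma were the same 5 with an added constant of 16 or of the median signal (68.63), with no signal filter, with the filter at the 60th percentile and after quantile normalization, and they were among the 48 that passed after median scaling and the 6 probe sets that passed when every probe set was tested. Without the trend 0 genes passed (711 at an unadjusted p under 0.05), and with the mean of probe sets 4 passed, Susd5 having a log2 fold change of 3.04 and an adjusted p of 0.12. Leaving out 1 array gave 0 to 287 genes by limma, 155 to 500 separated higher and 70 to 165 separated lower; a lone array was taken to vary like the other group.

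The genes separated lower numbered 12 with the constant at the median signal, 51 with no filter, 12 with the filter at the 60th percentile, 38 when every probe set was tested and 13 with the mean of probe sets. Those separated higher numbered 43 with the filter at the 60th percentile. The other filters and the test of every probe set change how many features enter. A larger constant shrinks every gap on the log2 scale, and the 12 genes separated lower with it were all among the 24. For the mean of probe sets the cause was not tested. Of the genes whose fold change was printed, Smad3 turned to 0.14 with the mean of probe sets and Fos ranged from -0.038 (without FGF2 replicate 2) to 3.13 (without FGF2 replicate 1). Apart from the left-out arrays, medians of described lists turned sign as follows. With no filter the collagen median was -0.057, Notch -0.019, Wnt -0.087 and BMP 0.030. With the filter at the 60th percentile Notch was -0.044, Wnt -0.29 and FGF and EGF -0.36. With the mean of probe sets FGF and EGF was -0.34, matrix proteases -0.028, astrocyte markers -0.080, EMT 0.072, BMP 0.030, glutathione 0.024 and neural adhesion -0.031. With every probe set FGF and EGF was -0.13, Wnt -0.028 and neural adhesion -0.0051. ER stress was 0.028 after median scaling and 0.054 after quantile normalization, where BMP was 0.0078. The median log2 fold change of all genes stayed between -0.0067 and 0.061 over these settings.

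Both groups carry replicate numbers, which the labels tie to no shared culture, day or batch. With the replicate number as a block, 76 genes passed by limma, 59 higher and 17 lower, including the 5 of the unblocked fit. Of the 15 genes named as lower, 10 then passed: Gjd2, Ccbe1, Dcx, Dtna, Ntn4, Fgf1, Slc6a11, Mcc, Kbtbd11 and Efhd2. The differences between replicates correlated at r = 0.468 across genes between the groups, and with 2 pairs the numbers were not taken to pair the arrays.

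With 2 arrays a group, differences smaller than the spread between replicates cannot be shown, and a gene that missed the threshold is not shown to be equal. Probe sets near the added constant carry little information on ratios. MAS5 signals mix specific and background binding, and a probe set can bind close paralogues.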

Other observations

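Further separated genes, chosen after their values were seen and outside the lists above, included receptors and transporters of the cell membrane. Lpar1, a receptor for lysophosphatidic acid, had signals of 114.7 and 94.5 in FGF2 against 512 and 658 in TGF-beta1. Lingo1, a neuronal co-receptor that restrains axon growth, had 1446 and 1519.7 against 4029 and 5501. Both were higher on each TGF-beta1 array, with log2 fold changes of 2.26 and 1.65 (limma adjusted p = 0.142 for both). Tmem100, a membrane protein linked to BMP and TGF-beta signalling, had 255 and 308 against 1025 and 887. Marchf3, a membrane ubiquitin ligase, had 1093 and 1102 against 4673 and 2841, FGF2 replicates being nearly equal. For Marchf3 2 of 3 probe sets pointed up. Anxa2, a phospholipid-binding annexin, had 212 and 46.1 against 898 and 709.5, with FGF2 replicate 2 far below FGF2 replicate 1.

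In the other direction, Slc27a1, a fatty acid transporter, had 4173 and 4728 in FGF2 against 1523 and 1817 in TGF-beta1. Csgalnact1, which starts chondroitin sulfate chains, had 1838 and 1390.4 against 547 and 665. Erc2, a protein of the presynaptic active zone, had 613 and 701 against 280.3 and 287. As separated genes all 3 lay lower on both TGF-beta1 arrays, with log2 fold changes of -1.40, -1.37 and -1.15, and none passed the test. Replicates of these genes differed by less than the groups did.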
